A study of Mus musculus with 12 samples.

Results

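Phase I xenobiotic enzymes are the first line of chemical processing of drugs, plant compounds and endogenous lipids in the intestinal epithelium. The genes described here were chosen by name alone. They are the genes of the cytochrome P450 families Cyp1, Cyp2, Cyp3 and Cyp4, of the carboxylesterase families Ces1 and Ces2, and of the flavin-containing monooxygenases (Fmo), without pseudogenes and without Cyp4a10. The rule gave 67 of the 18929 genes listed in the deposited count tables. Of these, 30 were Cyp2 genes, 11 Cyp4, 7 Cyp3, 7 Ces2, 6 Ces1, 4 Fmo and 2 Cyp1 genes.

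Cytochromes P450 are haem enzymes of the endoplasmic reticulum that insert oxygen into a substrate with electrons passed on by the reductase encoded by Por. Carboxylesterases hydrolyse ester drugs and acylglycerols, and Fmo enzymes oxidise nitrogen and sulphur centres. Many of these genes lie in tandem clusters of close paralogs, and several are classical targets of ligand-activated receptors. The aryl hydrocarbon receptor (Ahr) acts on Cyp1 genes, the constitutive androstane receptor (Nr1i3) on Cyp2b10, and the pregnane X receptor (Nr1i2) on Cyp3a genes. In the small intestine, differentiated enterocytes are the main site of their expression.

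RNA-Seq was performed on 12 libraries of mouse jejunal enteroids, which are organ-like epithelial cultures grown from isolated crypts. The 3 groups of 4 libraries were control enteroids, Hdac1-deficient enteroids and Hdac2-deficient enteroids, the mutants deleted for a histone deacetylase gene. The mutants carried Cre driven by the villin promoter, which is active in the intestinal epithelium. The study calls the controls villin-Cre in its results and wild-type in its methods, so whether they carried Cre is not certain. All 3 groups came from mice of a mixed C57BL/6J, 129SV and CD1 background. All were cultured for 5 days with EGF, Noggin and R-spondin 1. The methods name 1 mouse per genotype as the source of the crypts, so genotype cannot be told apart from mouse, culture line or strain alleles, and p-values measure the spread between these libraries, which may be technical.

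Between 20693200 and 30658628 counts per library fell on listed genes, so that 3 counts, the floor used here, are a very low level. Hdac1 itself fell from 90.6 ± 2.76 to 4.23 ± 0.834 CPM (counts scaled to library size, mean ± SD, n = 4) in Hdac1-deficient enteroids. Hdac2 fell from 137.0 ± 3.85 to 75.9 ± 2.89 CPM in Hdac2-deficient enteroids, a decrease of less than 2-fold (adjusted p = 1.7e-14, edgeR). The labelled tissue was checked with marker genes. The 4 epithelial markers summed to between 4130 and 5440 CPM in all libraries, whereas the listed fibroblast, leukocyte and endothelial markers summed to at most 0.508 CPM per list.

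Enterocyte and stem cell markers differed between the same groups that are compared in the results given next. All 12 enterocyte markers, among them Lct and Sis, were higher in both mutants, and their summed level was 10300 to 10800 CPM in control libraries, 19600 to 22400 CPM with Hdac1 deleted and 15800 to 17800 CPM with Hdac2 deleted. All 5 stem and crypt markers were lower in both, with sums of 3570 to 3770, 2000 to 2340 and 1680 to 1870 CPM. The 4 Paneth cell markers summed to 1330 to 1570, 2000 to 2140 and 2140 to 2260 CPM. The 5 goblet cell markers summed to 1420 to 1670, 1550 to 1670 and 2450 to 2690 CPM. In Hdac1-deficient enteroids these sums hid opposite directions. Of the Paneth markers, Lyz1 was higher (log2 fold change 1.26) and Ang4 lower (-0.63). Defa24 and Mmp7 showed no clear difference (adjusted p = 0.97 and 0.4, edgeR). Of the goblet markers, Zg16 (1.36), Clca1 (1.22) and Muc2 (0.99) were higher and Tff3 (-0.4) lower. Fcgbp, the most abundant, was at -0.21 (adjusted p = 0.057, edgeR). In Hdac2-deficient enteroids no Paneth or goblet marker was lower. The part of these shifts in the results was not tested. In RNA from whole cultures, more cells of a type and more RNA per cell cannot be told apart.

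The sequence before the start of 5 genes is shown first, because the results turn on these genes. Cyp4f16 and Cyp4f15 belong to the same cluster and moved in opposite directions. Cyp1a1, Cyp3a11 and Cyp2c29 are classical inducible genes that were higher in both mutants. The bases are from RefSeq on GRCm38.p6, run 5′ to 3′ towards the gene, and stop before any exon in GENCODE M21. The windows of Cyp1a1 and Cyp2c29 lie within introns of longer GENCODE models of the same genes. The sequences lie at chr17:32536307-32536556 (plus strand) for Cyp4f16, chr17:32685409-32685626 (plus strand) for Cyp4f15, chr9:57697363-57697612 (plus strand) for Cyp1a1, chr5:145879965-145880104 (minus strand) for Cyp3a11 and chr19:39286835-39287073 (plus strand) for Cyp2c29. Capitals mark 2 motifs, each searched on both strands. GCGTG is the core bound by Ahr with its partner Arnt, and appears in the printed strand as its reverse complement where it lies on the other strand. AGGTCA is the hexamer that nuclear receptors bind, searched in the same way. The letters of these motifs do not overlap each other in the sequences shown.

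Cyp4f16: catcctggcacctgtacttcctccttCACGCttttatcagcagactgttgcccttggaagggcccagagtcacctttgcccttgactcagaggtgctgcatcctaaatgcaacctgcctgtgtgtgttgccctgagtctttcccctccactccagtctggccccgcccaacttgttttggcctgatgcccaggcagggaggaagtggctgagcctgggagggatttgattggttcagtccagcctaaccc
Cyp4f15: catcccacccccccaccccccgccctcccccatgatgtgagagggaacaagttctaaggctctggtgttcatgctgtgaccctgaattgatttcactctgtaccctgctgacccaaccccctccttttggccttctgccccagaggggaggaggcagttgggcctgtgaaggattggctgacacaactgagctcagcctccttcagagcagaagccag
Cyp1a1: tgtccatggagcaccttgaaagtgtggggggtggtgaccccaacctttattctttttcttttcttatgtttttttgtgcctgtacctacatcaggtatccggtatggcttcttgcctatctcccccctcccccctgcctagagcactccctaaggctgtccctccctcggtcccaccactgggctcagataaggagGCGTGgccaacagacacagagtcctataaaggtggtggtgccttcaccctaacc
Cyp3a11: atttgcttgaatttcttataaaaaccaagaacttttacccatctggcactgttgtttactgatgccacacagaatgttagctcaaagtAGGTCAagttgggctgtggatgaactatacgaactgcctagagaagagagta
Cyp2c29: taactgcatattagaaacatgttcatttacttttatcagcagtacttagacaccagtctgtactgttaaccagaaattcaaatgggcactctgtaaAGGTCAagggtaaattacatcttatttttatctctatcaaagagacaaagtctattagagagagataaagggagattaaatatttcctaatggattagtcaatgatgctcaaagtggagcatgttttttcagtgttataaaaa

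The Cyp1a1 sequence held GCGTG at bases -54 to -50 counted from the RefSeq start, and the Cyp4f16 sequence held it on the other strand at -224 to -220. AGGTCA lay at -162 to -157 in Cyp3a11 and at -154 to -149 in Cyp2c29, also counted from the RefSeq start. The printed sequences of Cyp3a11 (140 bases), Cyp4f15 (218) and Cyp2c29 (239) end before that start, at a GENCODE exon within the window of 250 bases. The Cyp4f15 sequence held neither, which says only that these letters are not in this window. Of the 67 members, 56 had a promoter in the RefSeq table, with 64 windows of 250 bases. GCGTG was in 10 of these 64 windows (15.6%) against 28.2% of all 32851 windows of the table, and AGGTCA in 14 of 64 (21.9%) against 14% of all. A match of so few letters is a description and no evidence of binding.

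Levels of different genes were compared per kilobase of exon. In control enteroids, 10 of the 67 genes made up 79.8% of the summed CPM per kilobase, and 5 of them 57.1%. Ces2a and Ces2e, intestinal carboxylesterases, led with 319.1 and 246.1 CPM per kilobase. They were followed by Cyp4f14 with 151.1, a member of the family that hydroxylates leukotrienes and other fatty acids at the omega end, Cyp2d26 with 148.4 and Cyp2c65 with 130.2 CPM per kilobase. At the other end, 24 members had a mean below 1 CPM in control. Cyp1 genes were the lowest family, with 0.267 ± 0.0493 CPM per kilobase for both genes together.

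The summed level of all 67 members was higher in both mutants, with no overlap between control and mutant libraries. The ranges of the mutants overlapped each other. Control libraries held 4537 to 4710 CPM, Hdac1-deficient libraries 5485 to 6069 CPM and Hdac2-deficient libraries 5734 to 6181 CPM. The sum was not tested. By family, the Cyp3 genes went from 101.3 ± 3.53 to 167.7 ± 7.94 and 246.4 ± 7.69 CPM per kilobase, and the Cyp4 genes from 227.3 ± 4.51 to 428.3 ± 18.4 and 364.1 ± 11.9 CPM per kilobase in control, Hdac1-deficient and Hdac2-deficient enteroids (SD, n = 4). In the same order, the Cyp2 genes stood at 579.2 ± 25.5, 730.2 ± 41.3 and 791.1 ± 40.1 CPM per kilobase. The Ces1 genes (66.14 ± 0.861, 51.98 ± 2.12 and 78.5 ± 2.32) and the Fmo genes (52.15 ± 0.703, 45.98 ± 2.98 and 56.23 ± 2.01) were lower than control in Hdac1-deficient enteroids. Ces2 genes, the most abundant family in control, stood at 715.3 ± 5.52, 718.6 ± 21.2 and 665.9 ± 20.4 CPM per kilobase. Their share of the members' sum was 41.1% in control enteroids, 33.5% with Hdac1 deleted and 30.2% with Hdac2 deleted.

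**Figure D1:**
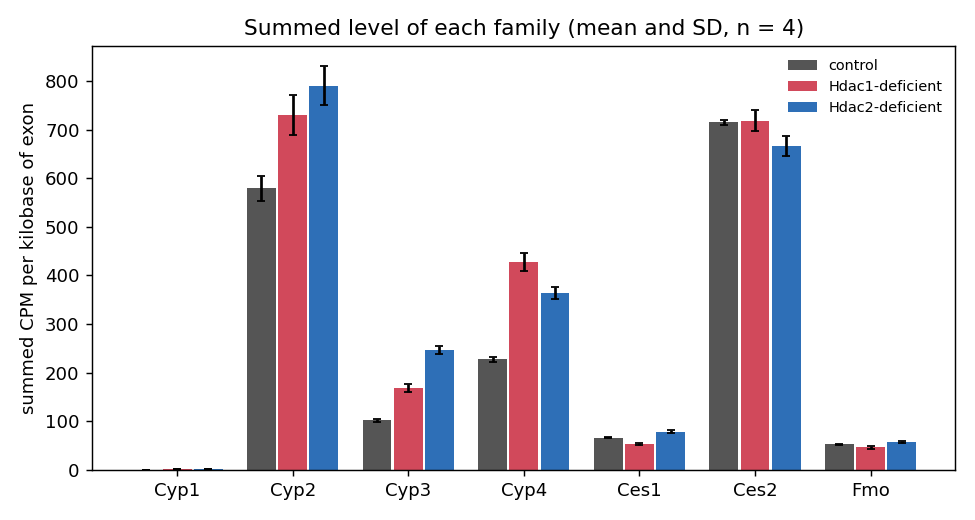
Summed CPM per kilobase of exon (vertical axis, from 0) of each family in control (grey), Hdac1-deficient (red) and Hdac2-deficient (blue) enteroids; bars are means of 4 libraries and error bars SD. Cyp4 stands highest in Hdac1-deficient (428.3) and Cyp3 in Hdac2-deficient enteroids (246.4), while Ces2 lies between 665.9 and 718.6 in all groups. Ces1 and Fmo stand lower in Hdac1-deficient (51.98 and 45.98) than in control enteroids (66.14 and 52.15).

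To compare the mutants with control, the study's limits were kept, so that a called gene had to change by more than 2-fold with an adjusted p no higher than 0.05. Rose and fell are used here for a gene past the adjusted p, with the fold change given. In Hdac1-deficient enteroids, 51 of the 67 members passed the filter on low counts. Of these, 18 were called increased and 2 decreased, against 6.87% and 3.71% of all 14246 genes tested (10.6% in either direction). Without the limit on the fold change, 33 members were higher and 14 lower, where 64.6% of all genes tested passed. The median log2 fold change of the 51 was 0.70, and that of all genes tested was 0.00. A gene can pass the filter through its high group alone, so these counts describe the genes tested and not all 67.

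In Hdac2-deficient enteroids, 53 members were tested. Here 15 were called increased and 1 decreased, against 5.45% and 2.84% of all 14007 genes tested (8.3% in either direction). Without the fold limit, 31 were higher and 6 lower, where 62.3% of all genes tested passed. The median log2 fold change of the 53 was 0.54, and that of all genes tested 0.00. Both comparisons use the same 4 control libraries, so the values of the mutants are given side by side and no agreement is read from them.

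**Figure D2:**
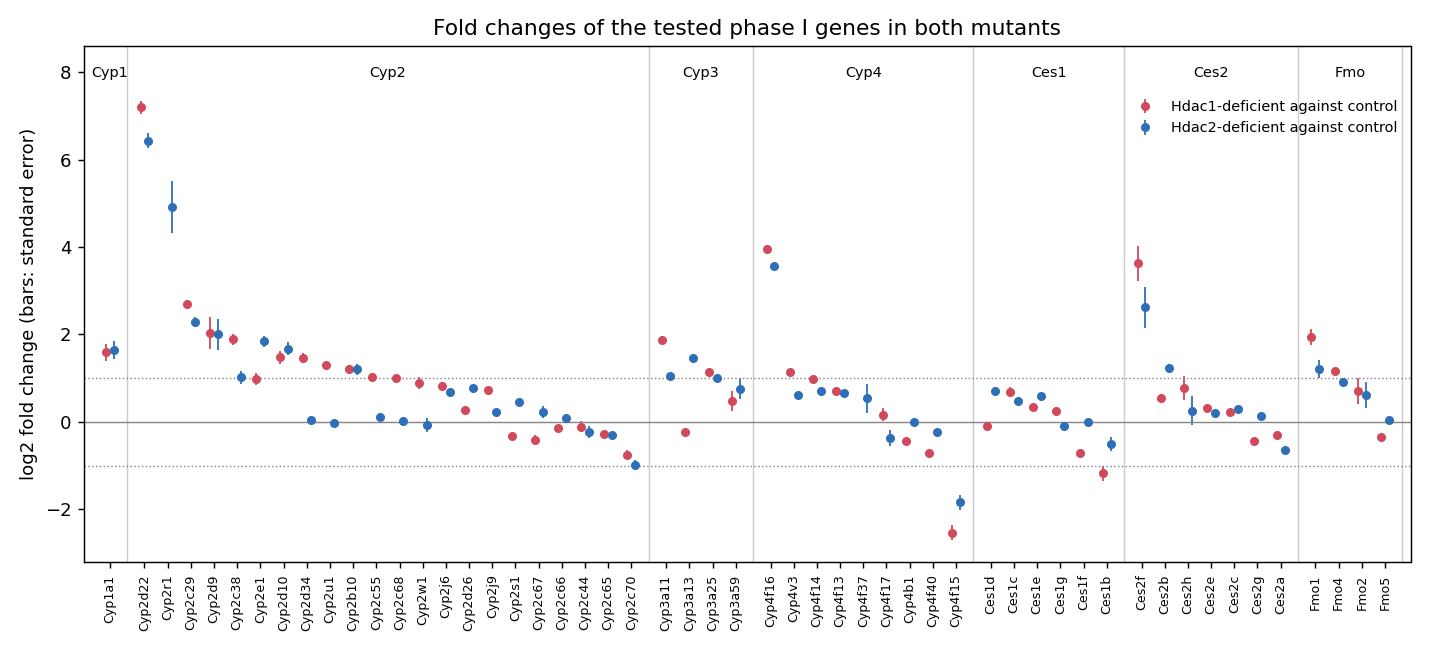
Log2 fold change (vertical axis, points with standard error) of every member tested, grouped by family, in Hdac1-deficient (red) and Hdac2-deficient (blue) against control enteroids; dotted lines mark 2-fold. Cyp2d22 (7.20 and 6.43) and Cyp4f16 (3.96 and 3.57) stand highest among genes tested in both comparisons, and Cyp4f15 (-2.53 and -1.84) lowest.

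Cyp1a1, which oxidises polycyclic aromatic hydrocarbons and is the best known target of Ahr, rose in both mutants from a low level. Its counts were 23, 16, 16 and 13 in the control libraries, 44, 58, 56 and 52 in Hdac1-deficient and 49, 42, 41 and 50 in Hdac2-deficient libraries. All 8 mutant libraries were above all control libraries. In Hdac1-deficient enteroids this was a change of 1.59 on the log2 scale (standard error 0.19, adjusted p = 3.7e-07 by edgeR). In Hdac2-deficient enteroids it was 1.65 (standard error 0.20, adjusted p = 4.2e-07). Cyp1b1, the other Ahr target of the family, had 5 to 11 counts in control, 1 to 6 in Hdac1-deficient and 5 to 13 in Hdac2-deficient libraries and was below the filter in all comparisons. Ahr itself was at 24.5, 27.8 and 29.96 CPM, with log2 fold changes of 0.20 and 0.31 that passed the adjusted p in both mutants (0.0035 and 1.5e-05, edgeR), far under 2-fold.

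A very large increase in both mutants was that of Cyp2d22, a gene of the drug-metabolising Cyp2d family on chromosome 15 (chr15:82370527-82380260, minus strand). Control libraries held 8, 7, 3 and 3 counts, Hdac1-deficient libraries 809, 788, 817 and 806, and Hdac2-deficient libraries 429, 429, 302 and 424. The gene was thus close to the floor in control and clearly expressed in every mutant library. The ratio of the summed counts, relative to library size, was 149-fold (95% counting interval 97.2 to 241) in Hdac1-deficient and 87.8-fold (57.2 to 142) in Hdac2-deficient enteroids. These intervals cover counting error only. The fitted log2 fold changes were 7.20 (standard error 0.15, adjusted p = 5.6e-19, edgeR) and 6.43 (standard error 0.17, adjusted p = 5.1e-18). Of the 771 windows of 100 bases in its transcripts, 1 also lay in transcripts of another gene.

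The neighbours of Cyp2d22 moved less. Cyp2d10, the next member along the chromosome, rose from 1.39 ± 0.126 to 3.83 ± 0.693 and 4.36 ± 0.694 CPM (log2 fold changes 1.48 and 1.67), but 14% of its transcript windows also lie in Cyp2d11 or Cyp2d9, so its reads are uncertain. Cyp2d34 had 179 to 207 counts in control, 458 to 605 in Hdac1-deficient and 132 to 198 in Hdac2-deficient libraries. On the log2 scale, the change without Hdac1 was 1.46 (standard error 0.12, adjusted p = 5.2e-08), whereas the value for Hdac2 was 0.04 (adjusted p = 0.71, edgeR). Cyp2d26, the most abundant gene of the cluster, rose from 265.9 ± 6.69 to 319.4 ± 14.2 and 454.2 ± 14.9 CPM, under 2-fold in both. Cyp2d9, named after its values were seen, had 3 to 12 counts in control, 18 to 38 in Hdac1-deficient and 14 to 32 in Hdac2-deficient libraries, with ratios of 4.12 (95% counting interval 2.64 to 6.64) and 4.05 (2.57 to 6.60).

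Apart from Cyp2c44 (chr19:44005022-44029208), the Cyp2c genes lie close together on chromosome 19, between 39007019 and 40187333. There were 14 Cyp2c members, whose enzymes oxidise drugs and arachidonic acid, and 9 of them were tested. In Hdac1-deficient enteroids 4 were called increased and none decreased, and in Hdac2-deficient enteroids 2 were called increased and none decreased. Of the other protein-coding genes tested on chromosome 19, 4.76% were called increased and 8.23% decreased without Hdac1, and 3.98% and 7.08% without Hdac2. The shares over all genes were 6.87% and 3.71%, and 5.45% and 2.84%. Cyp2c29, an arachidonic acid epoxygenase, had 186, 160, 188 and 96 counts in control, 929, 1163, 1062 and 1019 in Hdac1-deficient and 674, 625, 553 and 737 in Hdac2-deficient libraries. No control library came near a mutant library. Its log2 fold changes were 2.70 (standard error 0.08, adjusted p = 2.6e-15) and 2.28 (standard error 0.12, adjusted p = 4.3e-09, edgeR). Its neighbour Cyp2c38 rose from 2.25 ± 0.414 to 8.26 ± 1.21 and 4.503 ± 0.740 CPM, with log2 fold changes of 1.89 and 1.02. The call of Cyp2c38 in Hdac2-deficient enteroids ended without Hdac2-deficient replicate 1 (0.90), control replicate 2 (0.99) or control replicate 3 (0.91).

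Cyp2c55 and Cyp2c68 were called increased in Hdac1-deficient enteroids and stayed near the control level in Hdac2-deficient enteroids. Cyp2c55, a P450 of the intestinal tract, was at 18.4 ± 2.38, 37.4 ± 2.16 and 19.8 ± 2.00 CPM in control, Hdac1-deficient and Hdac2-deficient enteroids, and Cyp2c68 at 26.4 ± 0.716, 52.4 ± 5.52 and 26.7 ± 1.43 CPM. Their log2 fold changes of 1.03 and 1.01 lie just past the limit of 2-fold. The call of Cyp2c55 ended without replicate 4 of control (0.95) or of Hdac1-deficient (1.00), and that of Cyp2c68 without replicate 1, 2 or 3 of control (1.00, 1.00 and 0.99) or replicate 4 of Hdac1-deficient enteroids (0.94). The adjusted p of Cyp2c68 was at most 4e-09 in each of these fits (edgeR). Of the transcript windows of Cyp2c68, 20.2% are shared with Cyp2c40, Cyp2c69 or Cyp2c67.

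Other Cyp2c genes fell or differed little from control. Cyp2c65, named here after its values were seen, fell from 250.9 ± 9.78 to 205.6 ± 10.2 and 201.7 ± 8.77 CPM, with log2 fold changes of -0.27 and -0.30. Cyp2c66, also named after its values were seen, was at 181.5 ± 16.5, 161.8 ± 9.58 and 192.1 ± 18.8 CPM, with log2 fold changes of -0.15 (adjusted p = 0.037) and 0.09 (adjusted p = 0.39, edgeR) and overlapping groups. Cyp2c70, at 7.06 CPM in control, named likewise, fell by 0.75 and by 0.99 on the log2 scale, and passed 2-fold in Hdac2-deficient enteroids without replicate 1 (-1.0) or 3 (-1.04) of that group or replicate 1 (-1.02) or 4 (-1.05) of control. The other protein-coding genes of chromosome 19 were shifted downwards, with median log2 fold changes of -0.53 for Hdac1 and -0.52 for Hdac2 deletion, against 0.01 and 0.02 for the other autosomes. The increases of Cyp2c29 and Cyp2c38 therefore ran against the shift of their chromosome, as did those of Cyp2c55 and Cyp2c68 in Hdac1-deficient enteroids. The part of that shift in the values of any Cyp2c gene, Cyp2c65 and Cyp2c70 included, was not tested.

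Among the other Cyp2 genes, Cyp2b10, the classical target of Nr1i3, rose by the same factor in both mutants. Its counts were 2664, 2057, 2128 and 1592 in control, 4301, 5295, 4843 and 5217 in Hdac1-deficient and 4542, 3830, 3383 and 4684 in Hdac2-deficient libraries, with no overlap between control and mutants. Both log2 fold changes were 1.20, with standard errors of 0.10 for Hdac1 and 0.13 for Hdac2 (edgeR adjusted p = 8.7e-06 and 0.00016). Cyp2j6, an abundant intestinal gene of the fatty acid epoxygenase family Cyp2j, rose from 298.2 ± 11.5 to 526.2 ± 37.3 and 477.3 ± 24.5 CPM, under 2-fold in both.

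Cyp2e1, which oxidises ethanol and other small solvents, was called increased in Hdac2-deficient enteroids. It had 33 to 41 counts in control, 67 to 79 in Hdac1-deficient and 101 to 122 in Hdac2-deficient libraries, which gave log2 fold changes of 0.99 (standard error 0.14, adjusted p = 4.7e-06) and 1.84 (standard error 0.13, adjusted p = 7.4e-11, edgeR). Without replicate 1 or without replicate 4 of control, the value in Hdac1-deficient enteroids became 1.02 and passed the 2-fold limit. Cyp2u1, a hydroxylase of long-chain fatty acids, rose in Hdac1-deficient enteroids. Its counts were 434, 437, 460 and 393 in control and 1065, 1077, 1061 and 1132 in Hdac1-deficient libraries, whereas Hdac2-deficient libraries held 432, 330, 284 and 399. The log2 fold changes were 1.30 (standard error 0.06, adjusted p = 4.8e-13) and -0.03 (standard error 0.08, adjusted p = 0.77, edgeR). An annotated gene lies on the opposite strand of Cyp2u1, as of Cyp2c55, Cyp2d9 and Cyp2s1, and the strand setting of the counting is not known, so reads of such pairs cannot be told apart.

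Cyp2r1, a vitamin D 25-hydroxylase that was named after its values were seen, was called increased in Hdac2-deficient enteroids. Control libraries held 0, 2, 0 and 0 counts, Hdac1-deficient libraries 4, 3, 4 and 2, and Hdac2-deficient libraries 14, 18, 16 and 17. Summed over libraries, 65 counts in Hdac2-deficient against 2 in control gave a ratio of 37.8 with a 95% counting interval of 10.1 to 319. Both control counts lay in replicate 2. Without that library all control counts were 0, and the fitted log2 fold change went from 4.92 to 7.14, a value that depends on the prior count. In the Hdac1 comparison the gene was below the filter, and 13 counts against 2 gave a ratio of 6.31 (interval 1.43 to 57.6). The level remained low in all groups, at 0.683 ± 0.115 CPM where it was highest.

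**Figure D3:**
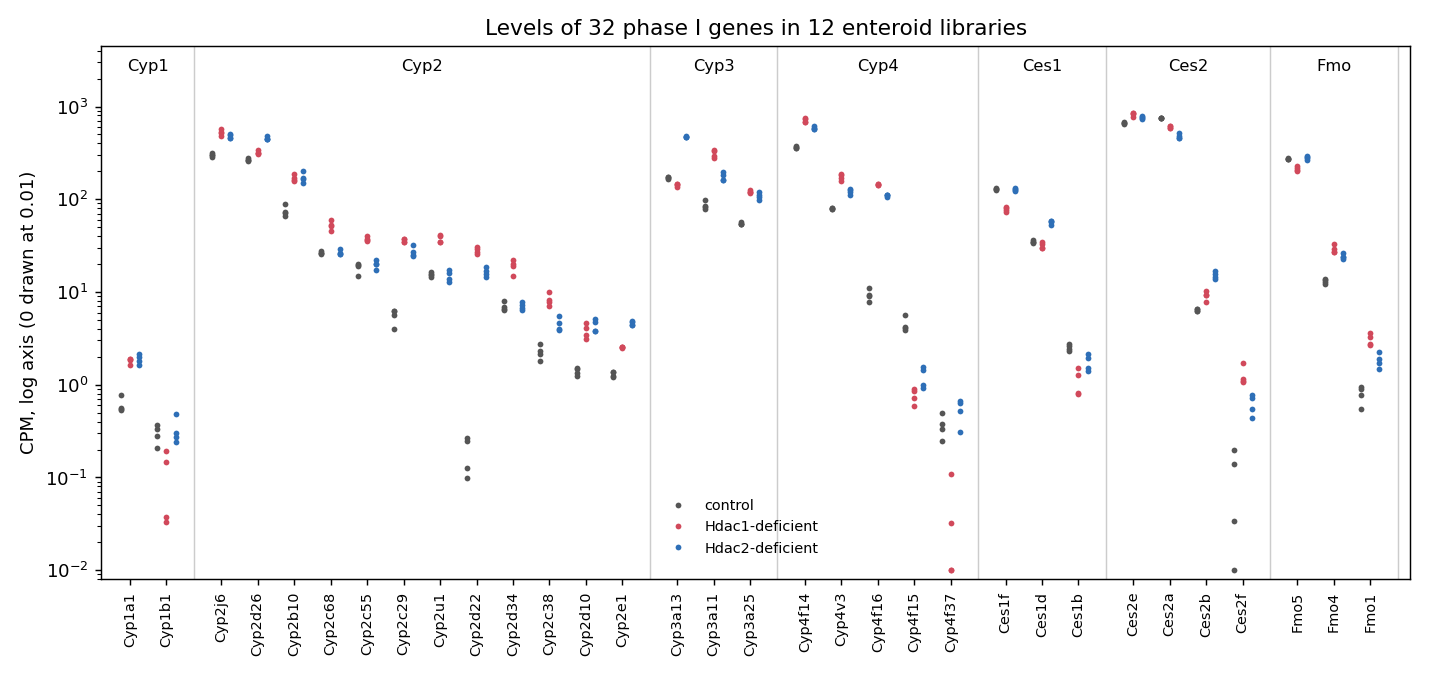
CPM on a log axis (vertical) of 32 members chosen by family for their level or their calls, with a point for each of the 4 control (grey), 4 Hdac1-deficient (red) and 4 Hdac2-deficient (blue) libraries; counts of 0 are drawn at 0.01. Libraries of a group lie close together for abundant genes and spread widely below 1 CPM, and Cyp2d22 shows the widest gap between control (0.0995 to 0.268) and Hdac1-deficient libraries (25.5 to 30.4).

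The Cyp3a genes encode the main drug-oxidising P450 enzymes of the gut. Cyp3a11, the textbook target of the pregnane X receptor, had 2908, 2238, 2472 and 2035 counts in control, 8830, 9147, 8426 and 9381 in Hdac1-deficient and 4949, 4111, 3354 and 4507 in Hdac2-deficient libraries. The groups did not overlap, and Hdac1-deficient libraries were the highest. Its log2 fold changes were 1.87 (standard error 0.09, adjusted p = 9.4e-08) and 1.04 (standard error 0.09, adjusted p = 1.3e-05, edgeR). The Hdac2 value stood at 0.98 without Hdac2-deficient replicate 4 and at 1.00 without control replicate 2, and the call ended in both cases.

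Cyp3a13, the Cyp3a gene with the highest level in control, moved in opposite directions in the mutants. It had 5244, 4826, 5200 and 3947 counts in control, 3650, 4466, 4346 and 4057 in Hdac1-deficient and 12672, 11914, 9804 and 10989 in Hdac2-deficient libraries, which is 170.9 ± 4.65, 142.8 ± 4.33 and 471.0 ± 5.46 CPM. On the log2 scale the change was -0.24 (standard error 0.03, adjusted p = 2e-06) without Hdac1 and 1.47 (standard error 0.03, adjusted p = 2.4e-20, edgeR) without Hdac2. No transcript window of Cyp3a13 was shared with another gene, though an annotated gene overlaps it on the same strand. Annotated genes on the same strand also overlap Ces1d, Cyp2c29, Cyp2d9, Cyp2d10 and Cyp4v3, and the part of these overlaps in the counts was not tested. Cyp2d9 shared 8.09% and Cyp4v3 5.66% of their transcript windows with other genes. Cyp3a25 rose from 54.7 ± 1.58 to 120.4 ± 4.15 and 108.4 ± 8.82 CPM. The value for Hdac2, 1.00 on the log2 scale, fell just short of the limit, and passed it without replicate 1 of control (1.02), replicate 2 (1.04) or replicate 3 (1.01) of Hdac2-deficient enteroids. Nr1i2, which encodes the receptor, was at 64.6 ± 1.08, 80.0 ± 5.18 and 77.6 CPM, with log2 fold changes of 0.32 and 0.27.

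In the Cyp4f cluster on chromosome 17, Cyp4f16 and Cyp4f15 moved in opposite directions. Cyp4f16 (chr17:32536558-32551798, plus strand) had 233, 259, 331 and 221 counts in control, 3795, 4476, 4358 and 3995 in Hdac1-deficient and 2870, 2866, 2285 and 2555 in Hdac2-deficient libraries. Its log2 fold changes were 3.96 (standard error 0.06, adjusted p = 4.6e-20) and 3.57 (standard error 0.06, adjusted p = 6.8e-19, edgeR), which is 15.6-fold and 11.9-fold. Cyp4f15 (chr17:32685627-32703352, plus strand) had 122, 118, 169 and 94 counts in control, 23, 18, 22 and 25 in Hdac1-deficient and 27, 37, 19 and 36 in Hdac2-deficient libraries, and fell by 2.53 and by 1.84 on the log2 scale (standard error 0.17 in both, adjusted p = 1.0e-10 and 7.0e-09, edgeR). Mutant and control libraries did not overlap for either gene.

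Cyp4f16 shares 10.4% of its transcript windows with Cyp4f37 or Cyp4f17. Cyp4f37 and Cyp4f40 lie between Cyp4f16 and Cyp4f15. Cyp4f40, named after its values were seen, was at 58.2 ± 5.05, 35.5 ± 2.19 and 49.4 ± 0.352 CPM, and fell by 0.70 and by 0.23 on the log2 scale (adjusted p = 3.7e-09 and 0.00045, edgeR). Cyp4f37 held 10, 7, 15 and 9 counts in control, 0, 1, 0 and 3 in Hdac1-deficient and 18, 8, 13 and 12 in Hdac2-deficient libraries. It was below the filter in the Hdac1 comparison, where the ratio of control to mutant counts was 10.6 (95% counting interval 3.82 to 40.6). Cyp4f14, the most abundant gene of the cluster, rose from 365.5 ± 8.65 to 708.6 ± 31.5 and 589.7 ± 22.4 CPM, with log2 fold changes of 0.97 and 0.70. Outside the cluster, Cyp4v3, a fatty acid hydroxylase, rose from 79.6 ± 1.36 to 174.0 ± 15.1 and 121.3 ± 8.29 CPM, past 2-fold in Hdac1-deficient enteroids (log2 fold change 1.14, standard error 0.05, adjusted p = 1.1e-12, edgeR).

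**Figure D4:**
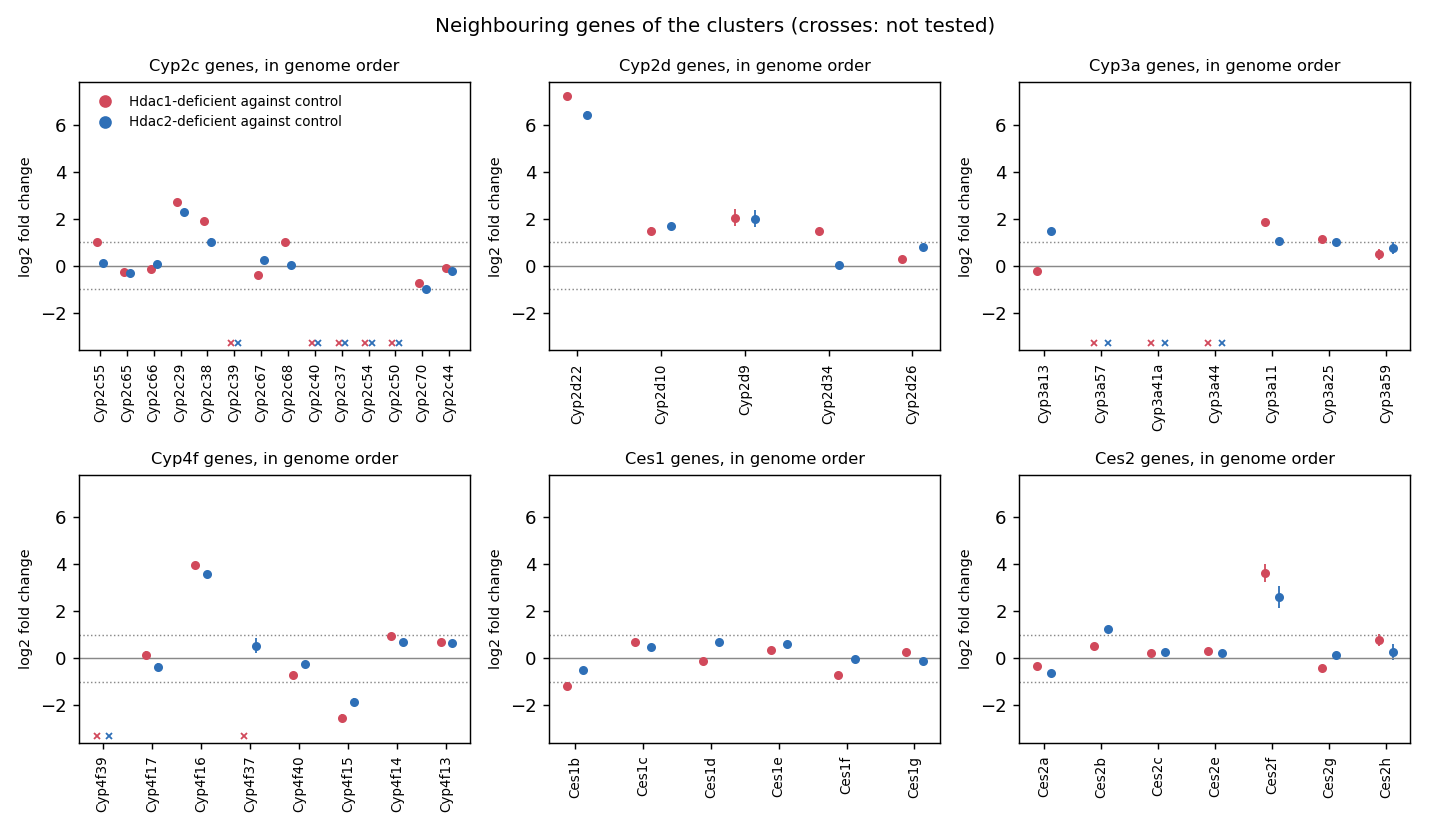
Log2 fold change against control (vertical axes, points with standard error, Hdac1-deficient in red and Hdac2-deficient in blue) of the genes of 6 clusters, ordered along each chromosome with equal spacing. Cyp2c44 and Cyp3a13 lie apart from the other genes of their panels. Crosses mark genes not tested and dotted lines 2-fold. In the Cyp4f panel Cyp4f16 lies at 3.96 and 3.57 and Cyp4f15 at -2.53 and -1.84, and in the Cyp2d panel only Cyp2d22 lies above 6.

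The abundant carboxylesterases stayed within 2-fold of control. Ces2e rose from 664.2 ± 10.8 to 822.5 ± 36.3 and 762.7 ± 24.3 CPM, while Ces2a fell from 752.8 ± 6.86 to 599.6 ± 18.2 and 480.9 ± 27.2 CPM, all under 2-fold. In control Ces2a was above Ces2e in CPM per kilobase, and in both mutants below it. Ces2f, at the floor in control with 1, 4, 6 and 0 counts, had 29, 33, 35 and 47 in Hdac1-deficient and 21, 14, 15 and 10 in Hdac2-deficient libraries. The ratios were 12.7 (95% counting interval 6.89 to 26.0) and 6.35 (3.31 to 13.4), and the gene was called increased in both comparisons. Ces2b rose from 6.402 ± 0.215 to 9.21 ± 0.993 and 15.1 ± 1.33 CPM and passed 2-fold in Hdac2-deficient enteroids (log2 fold change 1.24, standard error 0.08, adjusted p = 9.1e-12, edgeR).

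The Ces1 enzymes, several of which hydrolyse stored triacylglycerol, included the only carboxylesterase called decreased. Ces1b had 69, 77, 78 and 58 counts in control, 40, 25, 39 and 22 in Hdac1-deficient and 41, 50, 29 and 49 in Hdac2-deficient libraries, and its log2 fold changes were -1.18 (standard error 0.18, adjusted p = 1.3e-05) and -0.51 (standard error 0.16, adjusted p = 0.0081, edgeR). Ces1f was at 129.0 ± 3.13, 78.2 ± 4.11 and 127.2 ± 3.37 CPM in control, Hdac1-deficient and Hdac2-deficient enteroids. It fell by 0.71 on the log2 scale in Hdac1-deficient enteroids (adjusted p = 4.5e-12), and the Hdac2 value was -0.01 (adjusted p = 0.83, edgeR). Ces1d was at 34.8 ± 1.13, 32.1 ± 2.35 and 56.5 ± 2.502 CPM and rose by 0.71 on the log2 scale in Hdac2-deficient enteroids (adjusted p = 4.6e-12).

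Of the 4 Fmo genes, Fmo1 and Fmo4 rose in both mutants. Fmo1 had 28, 22, 27 and 13 counts in control, 97, 82, 83 and 91 in Hdac1-deficient and 61, 38, 39 and 40 in Hdac2-deficient libraries, without overlap, and log2 fold changes of 1.95 (standard error 0.18, adjusted p = 1.2e-08) and 1.21 (standard error 0.21, adjusted p = 2.9e-05, edgeR). Fmo4 rose from 13 ± 0.770 to 29.0 ± 2.81 and 24.2 ± 1.74 CPM, past 2-fold in Hdac1-deficient enteroids (log2 fold changes 1.17 and 0.91). Fmo5, the main Fmo of the intestine, was at 274.9 ± 4.53, 213.0 ± 12.5 and 279.7 ± 9.96 CPM and fell by 0.35 on the log2 scale in Hdac1-deficient enteroids. Fmo2, the lowest of them and named after its values were seen, had log2 fold changes of 0.71 (adjusted p = 0.038) and 0.62 (adjusted p = 0.081, edgeR), with overlapping groups in both comparisons.

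The mutants were also compared with each other directly, since a call against control in only 1 of them does not show that they differ. Of 54 members tested, 3 were called higher and 3 lower in the Hdac1 mutant than in the Hdac2 mutant, against 2.74% and 2.89% of all 14510 genes tested (5.62% in either direction). Without the fold limit, 22 were higher and 18 lower, where 45.9% of all genes tested passed. Higher in Hdac1-deficient enteroids were Cyp2d34 (log2 difference 1.42, standard error 0.11, adjusted p = 3.0e-09), Cyp2u1 (1.33, standard error 0.08, adjusted p = 7.0e-12) and Ces2f (1.00, standard error 0.28, adjusted p = 0.0043, edgeR). The difference of Ces2f stood at the limit and was 0.82, 0.94 and 0.87 without Hdac1-deficient replicate 4, Hdac2-deficient replicate 2 and Hdac2-deficient replicate 4. The call was also lost when no filter on low counts was used (1.00) and in the test against a 1.5-fold change (adjusted p = 0.29).

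Lower in Hdac1-deficient enteroids were Cyp3a13 (log2 difference -1.72, standard error 0.03, adjusted p = 7.4e-25), Cyp2r1 (-2.54, standard error 0.40, adjusted p = 7.4e-06) and Cyp4f37 (-3.76, standard error 0.57, adjusted p = 5.1e-06, edgeR). Cyp2r1 and Cyp4f37 rest on 13 and 4 counts in all Hdac1-deficient libraries, and the count ratios were 6.0 (95% counting interval 3.27 to 11.9) and 15.3 (5.62 to 58.2). Without Hdac1-deficient replicate 4, which held 3 of the 4 counts, the fitted difference of Cyp4f37 went to -5.06. Neither gene was tested between the mutants when a mean of at least 10 counts was required. Cyp2b10 and Cyp1a1, which rose in both mutants, differed between them by 0.00 (standard error 0.11) and -0.06 (standard error 0.16) on the log2 scale, and neither passed (adjusted p = 0.98 and 0.80). Cyp2s1, a P450 of barrier epithelia named after its values were seen, fell in Hdac1-deficient and rose in Hdac2-deficient enteroids (213.3 ± 8.42, 167.8 ± 7.36 and 292.1 ± 9.04 CPM), with a difference of -0.80 between the mutants.

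**Figure D5:**
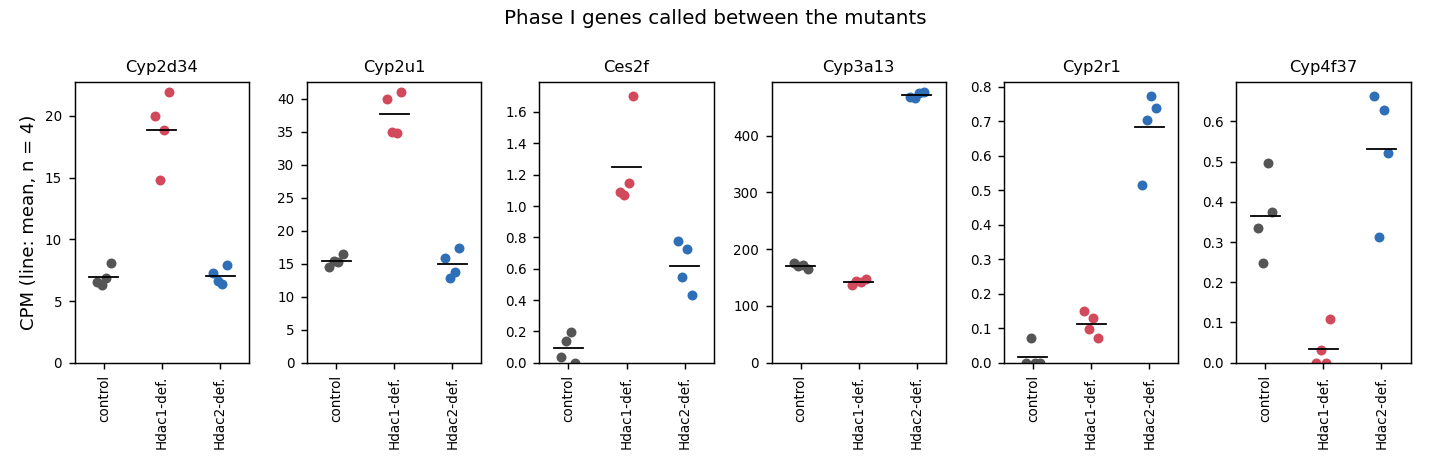
CPM per library (vertical axes from 0, points with the mean of 4 libraries as a line) of the 6 members called between the mutants, in control (grey), Hdac1-deficient (red) and Hdac2-deficient (blue) enteroids. Cyp2d34 and Cyp2u1 are raised in the 4 Hdac1-deficient libraries, and Cyp3a13 and Cyp2r1 are highest in the 4 Hdac2-deficient libraries.

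The remaining members were low or changed less. None of the comparisons tested 13 of the 67, which had 0 to 16 counts in any library. Among these, Cyp4f39, named after its values were seen, had 1, 3, 0 and 0 counts in control and 5, 16, 12 and 8 in Hdac1-deficient libraries, a ratio of 9.95 (95% counting interval 3.6 to 38.2). Of the 67 members, 3 (Cyp2c39, Cyp3a41a and Cyp3a44) were listed in the Hdac1 table alone and 4 (Cyp2c50, Cyp2c54, Cyp2j11 and Cyp3a57) in the Hdac2 table alone, since a gene is listed only with at least 10 counts over 8 libraries. Cyp3a41a shares 90.9% of its transcript windows with Cyp3a41b or Cyp3a44, and 34 of the 66 members with a transcript by that name share none. The count of these low paralogs is uncertain where windows are shared.

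The electron donors, regulators and other phase I enzymes were described in the same way. Of 48 such genes, 42 were listed and tested. In Hdac1-deficient enteroids 6 were called increased and 2 decreased, and in Hdac2-deficient enteroids 7 and 1. Over all genes tested, 6.87% were called increased and 3.71% decreased without Hdac1, and 5.45% and 2.84% without Hdac2. The calls were all among the 29 other enzymes, with none among the 5 electron donors or the 8 regulators. Por, the reductase that serves every P450 of the endoplasmic reticulum, was at 492.8 ± 10.6, 457.0 ± 13.8 and 570.9 ± 7.98 CPM (log2 fold changes -0.09 and 0.22). Adh1 and Adh4, alcohol and retinol dehydrogenases, had log2 fold changes of 1.10 and 0.67, and of 1.01 and 1.37. Akr1b7, an aldo-keto reductase, had values of 1.01 and 1.18, Akr1c14 of 0.33 and 1.14, and Pon3, a lactonase, of 0.54 and 1.13. Cyp26b1, which clears retinoic acid, fell by 2.60 and by 1.19 on the log2 scale.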

How the data were processed

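RNA-Seq libraries were mapped to 3 groups of 4 by the group in their titles. The authors aligned paired reads of 100 bases to GRCm38 with STAR. The counting program and its strand setting are not given in the sources used here. The deposited counts are reads per gene, not normalized, in 1 table per mutant with the same control libraries, for genes with at least 10 counts over 8 libraries. The deposited normalized score (count times a factor per library, rounded) and the authors' fold changes and p-values were not used.

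Counts were tested over all genes with edgeR 4.0.16 in R 4.3.3 (quasi-likelihood F test, robust, TMM, filterByExpr, Benjamini-Hochberg adjustment). Mutants were each compared with control in fits of 8 libraries and with each other in a fit of 12. The standard error is the log2 fold change over the square root of the F statistic. CPM values used TMM factors of 0.9799 to 1.0222, and depth was 20693200 to 30658628 counts per library. Counting intervals are exact binomial (95%). The comparisons with control were tested on simulated data with the same spread for every gene. Changes were planted only in genes above a limit on the mean count, so the simulation did not cover changes near the floor. Positions and lengths are from GENCODE M21, which holds 99.4% of the gene IDs. Shared windows are 100-base stretches, taken every 10 bases, that also occur in transcripts of another gene. Protein identity was not analysed here. The genes named are, per family, the 2 with the highest mean CPM and those called in any comparison, at most 6 (Cyp2 at most 10), and Cyp2c65, Cyp2c66, Cyp2c70, Cyp2d9, Cyp2r1, Cyp2s1, Cyp4f39, Cyp4f40 and Fmo2 were named after their values were seen. Of the partner list, Por, Ahr, Nr1i2 and up to 6 called genes by mean CPM are named. The members and lists were chosen with earlier results of these data known. Alternatives were DESeq2 1.42.0, relative log expression factors, no fold limit, scaling to library size alone, all listed genes kept, only genes averaging 10 counts or more, a test against a 1.5-fold change, the replicate number as a block, other sets of libraries in the fit, and each library left out in turn. Python 3.11.15 and matplotlib 3.10.9 made tables and figures.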

Additional observations from a re-analysis of the deposited data

Results flagged for a closer look

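The members named by the rule or after their values were seen, without Cyp4f39, gave 120 groups of 4 libraries. Of these groups, 8 held a library that stood apart from the other 3 by Dixon's test at the 95% level. About 1 in 20 groups passes this limit by chance. In control enteroids, these were Cyp1a1 in replicate 1 (0.771 CPM, others 0.531 to 0.566), Cyp2c68 in replicate 4 (27.5 CPM, others 25.9 to 26.1), Cyp3a25 in replicate 1 (57.0 CPM, others 53.7 to 54.0), Cyp4f15 in replicate 3 (5.60 CPM, others 3.92 to 4.17), Cyp2c66 in replicate 1 (206 CPM, others 171 to 175) and Cyp2r1 in replicate 2 (0.0707 CPM, others at 0). In Hdac1-deficient enteroids, they were Ces2f (1.70 CPM, others 1.07 to 1.15) and Cyp2c65 (221 CPM, others 199 to 201), both in replicate 4.

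In the direct comparison between the mutants, 6 members were called. The test was against no difference, and the limit of 2-fold was set on the estimate alone. The log2 difference of Hdac1-deficient minus Hdac2-deficient enteroids was 1.42 for Cyp2d34, 1.33 for Cyp2u1, 1.00 for Ces2f, -1.72 for Cyp3a13, -2.54 for Cyp2r1 and -3.76 for Cyp4f37. Cyp2r1 and Cyp4f37 rest on 13 and 4 counts in all Hdac1-deficient libraries, passed the filter through their high groups, and were not tested when a mean of at least 10 counts was required. Ces2f lies at the 2-fold limit and did not pass the test against a 1.5-fold change (adjusted p = 0.29).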

How the results depend on the processing

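The counts of increased members ran from 16 to 18 for Hdac1, from 14 to 17 for Hdac2 and from 2 to 4 between the mutants when each library was left out in turn, against 18, 15 and 3 with all libraries. Decreased members stayed at 2 and at 3 and ran from 1 to 2 in Hdac2-deficient enteroids, the second being Cyp2c70, which lies at the 2-fold limit. It was also called with all 12 libraries in 1 fit, with library size alone and in the test against a 1.5-fold change, which gave 2 decreased members each. With library size alone Cyp2c38 lost its call in Hdac2-deficient enteroids (0.99), and Cyp2c68 lost its call in Hdac1-deficient enteroids with all 12 libraries in 1 fit (0.99) and without a filter (1.00). Without a filter on low counts, 4 members were decreased in Hdac1-deficient enteroids, and 5 were lower in the Hdac1 than in the Hdac2 mutant. With a mean of at least 10 counts 13 were increased in Hdac2-deficient enteroids, because Ces2f and Cyp2r1 were then not tested against control. Between the mutants only 1 was then lower in the Hdac1 mutant, because Cyp2r1 and Cyp4f37 were not tested. The test against a 1.5-fold change gave 6 higher and 7 lower there. Without a fold limit the counts were 33 increased and 14 decreased, 31 and 6, and 22 and 18 in the 3 comparisons.

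With the replicate number as a block (the replicate block), 17 members were increased and 2 decreased with Hdac1 deleted, 15 and 1 with Hdac2 deleted, and 2 were higher and 3 lower between the mutants. Cyp2c68 (log2 fold change 1.00) and Ces2f (difference 0.99) lost their calls. No source pairs same-numbered libraries, whose deviations correlated at -0.212 to 0.219 over 11557 genes. When each library was left out in turn, no log2 fold change of a named member that had passed the adjusted p changed sign. Values near 0 that had not passed did so, between the mutants for Cyp2b10 (-0.06 to 0.09), Cyp1a1, Cyp2c65, Fmo2 (-0.09 to 0.24) and Cyp2d9 (-0.22 to 0.22), and against control in Hdac2-deficient enteroids for Cyp2u1 (-0.11 to 0.04), Cyp2d34 and Cyp2c68. Depth limits the members near 3 counts per library.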
